A study of Homo sapiens with 9 samples.

Results

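The genes described here are those whose symbol in the annotation of the array begins with a proteasome prefix (PSMA, PSMB, PSMC, PSMD, PSME, PSMF or PSMG) or with UBE2, the prefix of the ubiquitin-conjugating enzymes. The rule found 32 of the 14884 named genes, 5 with a proteasome prefix and 27 with UBE2. No measured difference between groups entered the rule. Where a gene had several probe sets, the one with the highest mean over the 9 arrays was taken, which concerned PSMB8-AS1 alone, whose 3 probe sets hold the same values. The proteasome prefix does not bring in the proteasome itself. None of 48 genes for proteasome subunits, activators, the inhibitor and assembly chaperones has a probe set under that symbol in the annotation used here, and those genes were not analysed. The 5 genes found are 4 long noncoding RNAs named as antisense to proteasome genes and PSMC3IP, whose protein acts in DNA recombination. They are called PSM-symbol genes below. Of the 27 UBE2 genes, 23 are protein-coding in RefSeq and 4 are transcribed pseudogenes.

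RNA came from HEK293, an established line of human embryonic kidney cells grown in DMEM with fetal bovine serum, and was hybridised to 9 Affymetrix arrays, 3 a group. The mock group is labelled as naïve cells without cumate. The GPR39 group is labelled as overexpressing GPR39, a zinc-sensing G protein-coupled receptor, and received 0.03 mg/mL cumate, the inducer of a bacterial repressor system that is built into expression vectors. The agonist group carries the same receptor label and received 1 uM TC-G-1008, a synthetic GPR39 agonist. The labels do not state whether the agonist cells also received cumate, how long the exposures lasted or whether the receptor cells are 1 clone. Receptor and cumate cannot be told apart in GPR39 against mock, and agonist and a possible lack of cumate cannot be told apart in agonist against GPR39. In agonist against mock the receptor, the agonist and possible cumate cannot be told apart, so a change there cannot be assigned to the agonist. Sample titles name biological replicates but do not define them as separate cultures, so the p-values cover the spread among the arrays as labelled.

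Ubiquitin reaches a protein through a relay of an activating enzyme (E1), a conjugating enzyme (E2) and a ligase (E3). The E2 carries ubiquitin on a cysteine and often decides which kind of chain is built. Some chains send the protein to the proteasome, a barrel-shaped 20S core protease capped by the 19S particle, and others serve signalling or DNA repair.

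Array medians lay between 3.13 and 3.22 on the log2 scale, and arrays of a group correlated at 0.984 to 0.991 across all probe sets. Mock replicate 1 had a mean correlation of 0.985 with its own group and 0.988 with the GPR39 group. The other arrays were not compared in this way. The probe set of GPR39 stayed between 2.43 and 2.65 in all 9 arrays and was too dim to be tested, so it does not show the labelled overexpression. The mean of 7 markers of HEK293 and epithelial cells was 6.77 to 6.92 in mock, 6.64 to 6.69 in GPR39 and 6.48 to 6.62 in agonist arrays. Of these 7, 1 passed in GPR39 against mock (IRS4, log2 change -1.03 ± 0.14), 1 in agonist against GPR39 (EYA1, log2 change -0.82 ± 0.08) and 4 in agonist against mock, with IRS4, EYA1 and VIM lower and KRT18 higher. The mean of 5 leukocyte markers was 3.99 to 4.11, 4.29 to 4.45 and 4.43 to 4.55 in the same order, with 1 of 5, 0 of 5 and 1 of 5 past the threshold in GPR39 against mock, agonist against GPR39 and agonist against mock. Among all probe sets 1.17%, 9.06% and 15.0% passed in these comparisons. All 5 leukocyte markers had positive changes in both comparisons with mock. The marker that passed was CD68, which other cells also express. In agonist against mock TYROBP had a change of 0.68 ± 0.21 without overlap of the arrays (adjusted p = 0.0719), and LST1, LAPTM5 and CD14 had 0.15 ± 0.08, 0.10 ± 0.10 and 0.09 ± 0.08. Both fibroblast markers with a probe set, DCN and LUM, were too dim to be tested. The part of these shifts in the results below was not tested.

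A probe set was tested when it lay above the 40th percentile of the array in at least 3 of the 9 arrays. All 5 PSM-symbol genes and 25 of the 27 UBE2 genes did so. UBE2U, a conjugating enzyme gene, and UBE2DNL, a pseudogene, lay at or below that percentile in all 9 arrays, with group means of 1.60 to 1.65 and of 2.21 to 2.38. Values are log2 signals, errors of levels are SDs over 3 arrays, and errors of log2 changes are standard errors of the limma fit. A change passed when its adjusted p was under 0.05, with Benjamini-Hochberg adjustment over all 33376 probe sets tested.

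UBE2QL1 and UBE2S were higher and UBE2E2, UBE2D4 and UBE2V1 lower in agonist than in mock cells, and the other 20 UBE2 genes tested did not pass in any comparison. In GPR39 against mock 1 of 25 UBE2 genes passed, UBE2QL1, which was higher, where 1.17% of all probe sets passed, 0.749% higher and 0.422% lower. In agonist against GPR39 2 passed, UBE2E2 and UBE2V1, both lower, where 9.06% of all probe sets passed, 3.12% higher and 5.95% lower. In agonist against mock 5 passed, where 15.0% of all probe sets passed, 6.11% higher and 8.94% lower. At an unadjusted p under 0.05 there were 3, 7 and 8 UBE2 genes in the 3 comparisons, where 14.8%, 23.4% and 28.8% of all probe sets lay under it. With each array centred on its 75th percentile, the split in agonist against mock was 2 higher and 1 lower in place of 2 higher and 3 lower. The split over all probe sets turned with that centring, to 2771 higher and 2159 lower in place of 2039 higher and 2983 lower. In GPR39 against mock it was 310 higher and 105 lower in place of 250 higher and 141 lower.

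The median change of the 25 UBE2 genes was 0.03 in GPR39 against mock, -0.11 in agonist against GPR39 and -0.07 in agonist against mock, beside 0.01, 0.01 and 0.02 over all probe sets. Arrays of the compared groups did not overlap for 6 UBE2 genes in GPR39 against mock, where 20.7% of all probe sets did not overlap. The count was 10 in agonist against GPR39, with 29.9% over all probe sets, and 9 in agonist against mock, with 31.0%. The 95% interval of the change lay wholly within 1.5-fold in either direction for 21, 21 and 17 of the 25 genes in the 3 comparisons. The intervals of noisier genes reached further, such as those of UBE2N in all 3 comparisons and of UBE2MP1 in both comparisons with mock. So did those of genes that passed, such as UBE2QL1 and UBE2S in agonist against mock, with upper ends of 1.15 and 0.71.

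**Figure D1:**
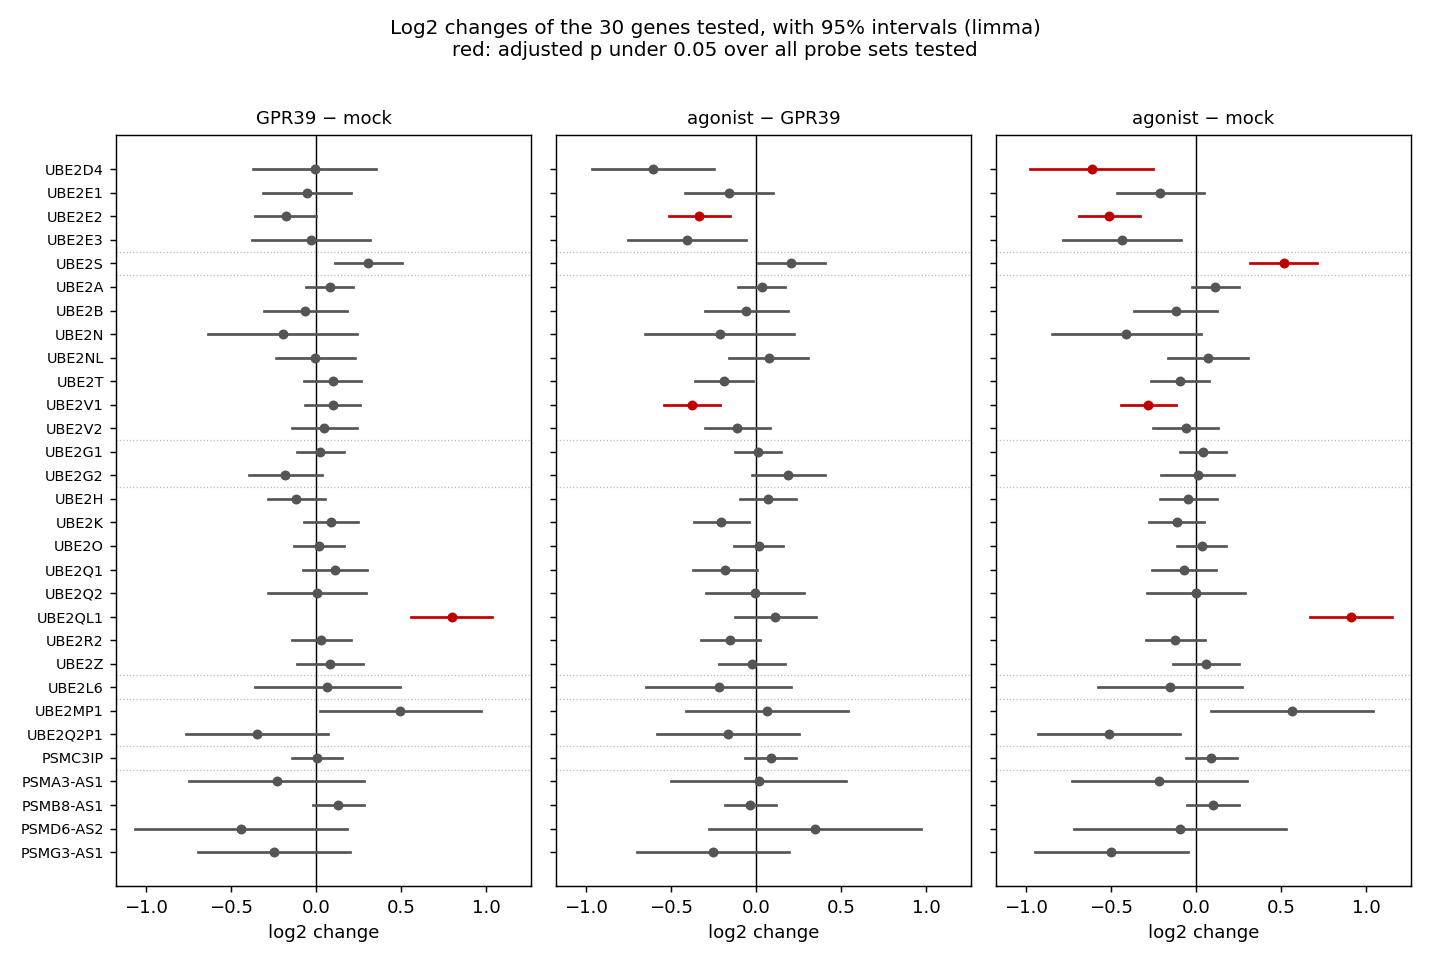
Log2 changes of the 30 genes tested (horizontal axis), 1 row a gene, for GPR39 minus mock, agonist minus GPR39 and agonist minus mock; points are limma estimates, bars are 95% intervals and red marks an adjusted p under 0.05. UBE2QL1 stands at 0.80 and 0.91 in the comparisons with mock, and UBE2D4 at -0.61 in agonist minus mock.

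The promoters of the 5 UBE2 genes that passed are shown so that their base composition and motif matches can be set beside the values that follow. Each window holds the 250 bases before the outermost start of the gene in RefSeq (GRCh38.p14), 5′ to 3′ on the strand of the gene. Capitals mark matches to any of 5 motifs on either strand: TGANTCA (AP-1), TGACGTCA (the cAMP response element), CATTCC (TEAD), CCAAT (the CCAAT box) and TTTGAA (a cell-cycle element). No match overlapped another in these windows. The windows are chr5:6448609-6448858 on the plus strand for UBE2QL1, chr19:55407789-55408038 on the minus strand for UBE2S, chr3:23202848-23203097 on the plus strand for UBE2E2, chr7:43926186-43926435 on the plus strand for UBE2D4 and chr20:50115958-50116207 on the minus strand for UBE2V1.
UBE2QL1: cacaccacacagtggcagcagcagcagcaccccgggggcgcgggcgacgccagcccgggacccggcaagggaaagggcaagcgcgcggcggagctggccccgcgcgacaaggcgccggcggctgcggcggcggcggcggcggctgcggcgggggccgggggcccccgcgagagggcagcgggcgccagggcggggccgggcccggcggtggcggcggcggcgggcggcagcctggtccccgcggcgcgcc
UBE2S: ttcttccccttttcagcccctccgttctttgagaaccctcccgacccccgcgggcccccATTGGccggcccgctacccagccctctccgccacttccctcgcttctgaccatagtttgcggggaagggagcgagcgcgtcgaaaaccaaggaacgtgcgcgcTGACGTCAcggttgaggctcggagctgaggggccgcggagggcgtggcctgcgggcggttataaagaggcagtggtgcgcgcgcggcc
UBE2E2: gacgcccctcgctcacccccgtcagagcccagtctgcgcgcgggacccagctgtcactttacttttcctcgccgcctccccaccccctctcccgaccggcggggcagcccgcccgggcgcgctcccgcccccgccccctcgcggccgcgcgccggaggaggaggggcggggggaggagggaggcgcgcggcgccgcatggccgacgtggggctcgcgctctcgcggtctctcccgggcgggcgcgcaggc
UBE2D4: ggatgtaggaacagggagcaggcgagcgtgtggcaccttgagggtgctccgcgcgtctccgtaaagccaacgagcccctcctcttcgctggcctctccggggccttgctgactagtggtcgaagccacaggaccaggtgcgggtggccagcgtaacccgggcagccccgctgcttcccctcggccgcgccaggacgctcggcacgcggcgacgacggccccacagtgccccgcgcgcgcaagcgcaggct
UBE2V1: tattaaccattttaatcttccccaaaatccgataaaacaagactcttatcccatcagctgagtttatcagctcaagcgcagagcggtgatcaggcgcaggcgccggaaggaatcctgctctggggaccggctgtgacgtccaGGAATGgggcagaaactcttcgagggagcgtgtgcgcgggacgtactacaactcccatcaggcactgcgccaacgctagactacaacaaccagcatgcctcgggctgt

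The windows of UBE2QL1, UBE2E2 and UBE2D4 were rich in G and C (85.6%, 80.4% and 71.2%) and held none of the 5 motifs. The UBE2S window (67.6% G and C) held a cAMP response element at position -88 from the start and a CCAAT box, read as ATTGG on the strand shown, at -191. The UBE2V1 window (54.4% G and C) held a TEAD motif at -108. The cAMP response element occurs in 1.65% of 35116 RefSeq promoter windows, the TEAD motif in 11.9% and the CCAAT box in 32%. Of the 24 genes of the set with a promoter entry, 1, 3 and 7 held these motifs in that order, 2 held the cell-cycle element (13.3% of all windows) and 0 the AP-1 motif (6.57%). A match is a string of letters, and binding was not measured.

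Among the chain builders and the other conjugating enzyme genes grouped with them, UBE2QL1 changed most. It encodes a relative of the UBE2Q enzymes that is known for marking damaged lysosomes and as a candidate tumour suppressor of the kidney. The mock arrays read 4.62, 4.82 and 4.61, the GPR39 arrays 5.53, 5.34 and 5.57, and the agonist arrays 5.44, 5.69 and 5.65. All 6 arrays with the receptor label lay above all 3 mock arrays, and GPR39 and agonist arrays overlapped. UBE2QL1 rose 1.74-fold in GPR39 against mock (log2 change 0.80 ± 0.10, limma adjusted p = 0.013) and 1.88-fold in agonist against mock (0.91 ± 0.10, adjusted p = 0.000972). From GPR39 to agonist the change was 0.12 ± 0.10, with an interval from -0.12 to 0.35 (adjusted p = 0.562). The first rise missed the threshold without mock replicate 3, without GPR39 replicate 1 and without GPR39 replicate 3 (adjusted p = 0.0563 to 0.0719), while the change stayed between 0.75 and 0.87. The rise in agonist against mock passed with any 1 of the 9 arrays left out. In RefSeq UBE2QL1 overlaps the long noncoding RNA LOC105374639, and no label or file states which strand the probes read.

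The other 7 genes tested of this mixed group did not pass in any comparison. UBE2K, which extends the chains that lead to the proteasome, read 9.36, 9.41 and 9.36 in mock, 9.50, 9.41 and 9.49 in GPR39 and 9.18, 9.36 and 9.25 in agonist arrays. Its agonist arrays lay below its GPR39 arrays without overlap, and the change of -0.20 ± 0.07 had an adjusted p of 0.123. UBE2Q1, a relative of UBE2QL1 by name, changed by -0.18 ± 0.08 from GPR39 to agonist, also without overlap (adjusted p = 0.228). UBE2Q2, the other such relative, had changes of 0.01, -0.01 and 0.00, each ± 0.13. UBE2R2, which works with cullin ligases, had changes between -0.15 and 0.03. UBE2H, a partner of the CTLH ligase, UBE2O, which combines E2 and E3 activity, and UBE2Z, which is charged by the alternative E1 UBA6, had changes between -0.11 and 0.09. The GPR39 arrays of UBE2H lay below its mock and agonist arrays without overlap.

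UBE2S is the E2 that lengthens ubiquitin chains for the anaphase-promoting complex during mitosis. Its mock arrays read 7.15, 7.30 and 7.10, its GPR39 arrays 7.44, 7.47 and 7.56, and its agonist arrays 7.61, 7.67 and 7.82. The 3 groups did not overlap, with mock lowest and agonist highest. UBE2S rose 1.43-fold in agonist against mock (log2 change 0.52 ± 0.09, limma adjusted p = 0.00521), and passed with any 1 of the 9 arrays left out. Neither step passed alone, with 0.31 ± 0.09 from mock to GPR39 (adjusted p = 0.154) and 0.21 ± 0.09 from GPR39 to agonist (adjusted p = 0.186). UBE2S overlaps the ribosomal protein gene RPL28 in RefSeq, whose own probe set changed by 0.14 ± 0.10, 0.14 ± 0.10 and 0.27 ± 0.10, none past the threshold.

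UBE2S was set beside other genes of mitosis. Of 16 such genes tested, from a list of 19, 0 passed in GPR39 against mock. In agonist against GPR39 7 were lower and 0 higher, where 5.95% of all probe sets were lower. In agonist against mock 8 were lower and 0 higher, where 8.94% of all probe sets were lower. Changes were positive for 3 and negative for 13 genes in agonist against GPR39, and positive for 4 and negative for 12 in agonist against mock. CDK1 (0.02 and 0.06) and AURKB (0.03 and 0.03) were positive in both. The median changes of the list were -0.01, -0.29 and -0.30. HMMR, a spindle protein, fell in both agonist comparisons (-0.71 ± 0.06, adjusted p = 0.000575, and -0.80 ± 0.06, adjusted p = 0.00014). KIF20A, a kinesin of cell division, also fell in both (-0.69 ± 0.11, adjusted p = 0.00935, and -0.80 ± 0.11, adjusted p = 0.0026). Both genes passed with any 1 array left out. The calls of BUB1, CCNB2, PLK1, TOP2A and TTK in agonist against GPR39 were lost without any 1 GPR39 array. For each gene the call was also lost without at least 1 agonist array (adjusted p = 0.0517 to 0.0932). In agonist against mock the call of BUB1B was lost on leaving out any 1 array but agonist replicate 1 (adjusted p = 0.0512 to 0.102). That of PLK1 was lost without mock replicate 1 or 2, any 1 GPR39 array, or agonist replicate 1 or 2. Its adjusted p was then 0.073 to 0.125. CDC20, an activator of the ligase that UBE2S serves and also counted among the ligases, had changes of -0.36 ± 0.11 (adjusted p = 0.0808) and -0.37 ± 0.11 (adjusted p = 0.0532).

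**Figure D2:**
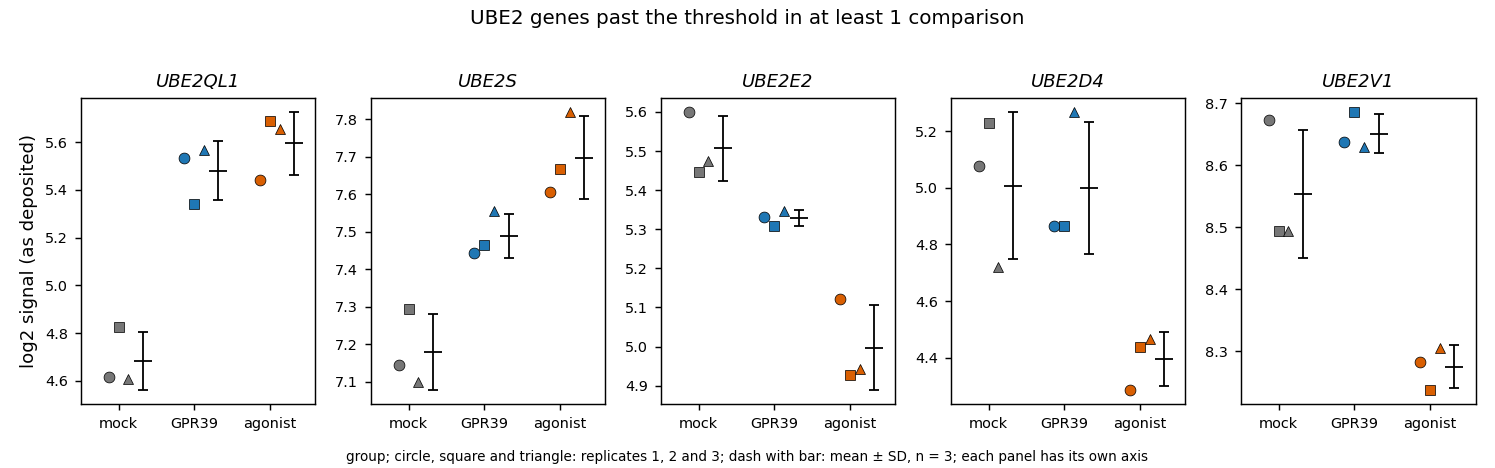
Log2 signal (vertical axis, a separate axis for each gene) of the 5 UBE2 genes past the threshold in at least 1 comparison, by group, with 1 point an array and mean ± SD beside the points (n = 3). UBE2QL1 and UBE2S lie lowest in mock, and the agonist arrays of UBE2E2, UBE2D4 and UBE2V1 lie below all other arrays.

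The UBE2D and UBE2E families hold versatile enzymes that work with many RING ligases. All 4 members tested had negative changes in both comparisons with the agonist group, and 1 of 4 and 2 of 4 passed. Among all probe sets 5.95% and 8.94% were lower in these comparisons. Their median change was -0.04 in GPR39 against mock, -0.37 in agonist against GPR39 and -0.47 in agonist against mock. UBE2E2 read 5.60, 5.45 and 5.47 in mock, 5.33, 5.31 and 5.35 in GPR39 and 5.12, 4.93 and 4.94 in agonist arrays. Its groups did not overlap, with mock highest and agonist lowest. UBE2E2 fell 1.42-fold in agonist against mock (log2 change -0.51 ± 0.08, limma adjusted p = 0.00376), and passed with any 1 of the 9 arrays left out. It also fell in agonist against GPR39 (-0.33 ± 0.08, adjusted p = 0.0365), a call lost without mock replicate 2 or 3, any 1 GPR39 array, or agonist replicate 2 or 3 (adjusted p = 0.0508 to 0.114). The change of -0.18 ± 0.08 in GPR39 against mock did not pass (adjusted p = 0.341).

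UBE2D4, the only named UBE2D enzyme tested here, read 5.08, 5.23 and 4.72 in mock, 4.87, 4.87 and 5.27 in GPR39 and 4.29, 4.44 and 4.46 in agonist arrays. The agonist arrays lay below all others, and mock and GPR39 overlapped. UBE2D4 fell 1.53-fold in agonist against mock (log2 change -0.61 ± 0.16, limma adjusted p = 0.0345). The call was lost without mock replicate 1 or 2 or any 1 agonist array (adjusted p = 0.0694 to 0.109), and also with each array centred on its 75th percentile. The change of nearly the same size in agonist against GPR39, -0.60 ± 0.16, missed the threshold (adjusted p = 0.0511) and passed without mock replicate 3 (adjusted p = 0.0321). UBE2D4 overlaps URGCP, whose probe set changed by 0.00 ± 0.05 in agonist against GPR39 and in agonist against mock. UBE2E3 had changes of -0.41 ± 0.15 (adjusted p = 0.147) and -0.43 ± 0.15 (adjusted p = 0.0971) in the agonist comparisons, with agonist arrays below all others, and UBE2E1 had -0.16 ± 0.11 and -0.21 ± 0.11.

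The role group of DNA damage enzymes was counted over 7 genes tested, which include the inactive UBE2V1 and UBE2V2 and the pseudogene UBE2NL. In the 3 comparisons 0, 1 and 1 passed, where 1.17%, 9.06% and 15.0% of all probe sets did. The median changes were 0.05, -0.11 and -0.09, and DNA damage itself was not measured. The gene that passed was UBE2V1, which lacks the catalytic cysteine and acts as partner of UBE2N in building chains that do not lead to the proteasome. UBE2V1 read 8.67, 8.49 and 8.49 in mock, 8.64, 8.69 and 8.63 in GPR39 and 8.28, 8.24 and 8.30 in agonist arrays. The agonist arrays lay below all others, and mock and GPR39 overlapped. UBE2V1 fell 1.30-fold in agonist against GPR39 (log2 change -0.38 ± 0.07, limma adjusted p = 0.016) and 1.21-fold in agonist against mock (-0.28 ± 0.07, adjusted p = 0.0343). The first call was lost without any 1 GPR39 array (adjusted p = 0.0526 to 0.0644). The call against mock was lost on leaving out any 1 array but mock replicate 3 (adjusted p = 0.0572 to 0.0857) and with each array centred on its 75th percentile. UBE2V1 overlaps the readthrough gene PEDS1-UBE2V1, and no label or file states which of them the probes read.

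UBE2N, the catalytic partner of UBE2V1, read 4.72, 4.79 and 5.27 in mock, 4.88, 4.68 and 4.63 in GPR39 and 4.67, 4.72 and 4.16 in agonist arrays. The agonist arrays lay just below the mock arrays, and the change of -0.41 ± 0.19 did not pass (adjusted p = 0.203). UBE2V2, the other inactive partner of UBE2N, had changes of 0.05, -0.11 and -0.06, each ± 0.08. UBE2A and UBE2B, which modify the replication clamp PCNA with RAD18, had changes between 0.03 and 0.11 and between -0.12 and -0.06. The GPR39 and agonist arrays of UBE2A lay above its mock arrays without overlap, and no change passed. UBE2T, the E2 of the Fanconi anaemia pathway, read 8.47, 8.44 and 8.45 in GPR39 and 8.14, 8.31 and 8.34 in agonist arrays. These groups did not overlap, and the change of -0.19 ± 0.07 did not pass (adjusted p = 0.168). UBE2NL, a transcribed pseudogene related to UBE2N, lay at or below the 40th percentile in 1 array of each group and had changes of 0.00, 0.08 and 0.07, each ± 0.10.

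Neither enzyme of degradation at the endoplasmic reticulum passed. UBE2G1 had the smallest interval of the set and read 9.57, 9.48 and 9.56 in mock, 9.53, 9.56 and 9.58 in GPR39 and 9.58, 9.56 and 9.57 in agonist arrays. Its changes were 0.03, 0.01 and 0.04, each ± 0.06, and the interval in agonist against mock ran from -0.10 to 0.18. UBE2G2 had changes of -0.18 ± 0.09 (adjusted p = 0.413), 0.19 ± 0.09 (adjusted p = 0.269) and 0.01 ± 0.09. The agonist arrays of UBE2G2 lay above its GPR39 arrays without overlap. UBE2L6, which conjugates the ubiquitin-like protein ISG15, read 3.82, 4.11 and 3.74 in mock, 3.87, 3.84 and 4.16 in GPR39 and 4.14, 3.50 and 3.58 in agonist arrays. All of its groups overlapped, and no change passed.

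The pseudogene UBE2MP1 read 7.07, 7.89 and 7.17 in mock, 7.74, 8.07 and 7.83 in GPR39 and 8.05, 7.96 and 7.83 in agonist arrays. Mock replicate 2 lay among the arrays with the receptor label, and the changes of 0.50 ± 0.21 (adjusted p = 0.315) and 0.56 ± 0.21 (adjusted p = 0.113) against mock did not pass. Without mock replicate 2 the change in agonist against mock passed (adjusted p = 0.00752). UBE2Q2P1, a pseudogene of UBE2Q2, had a change of -0.51 ± 0.18 in agonist against mock (adjusted p = 0.103), with agonist arrays below mock arrays. Without GPR39 replicate 2 it passed as well (adjusted p = 0.0465). Probes of a pseudogene can also bind the RNA of its parent gene, and this was not tested.

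None of the 5 PSM-symbol genes passed in any comparison in limma. Among all probe sets 1.17% passed in GPR39 against mock, 9.06% in agonist against GPR39 and 15.0% in agonist against mock. The arrays of the 5 genes overlapped between all groups, where 20.7%, 29.9% and 31.0% of all probe sets did not overlap. The count at an unadjusted p under 0.05 was 0 in GPR39 against mock, 0 in agonist against GPR39 and 1 in agonist against mock. Over all probe sets 14.8%, 23.4% and 28.8% lay under it. With 5 genes, such counts do not set them apart from the whole table. The median changes of the 5 genes were -0.23, 0.02 and -0.09. PSMC3IP, known as HOP2, which helps pair chromosomes in meiosis, read 7.48, 7.48 and 7.38 in mock, 7.46, 7.48 and 7.42 in GPR39 and 7.48, 7.59 and 7.54 in agonist arrays. Its changes were 0.01, 0.09 and 0.09, each ± 0.06, so that none reached 1.5-fold within its interval. PSMC3IP overlaps MLX in RefSeq.

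The 4 antisense RNAs varied more between arrays. PSMA3-AS1 read 5.37, 6.11 and 6.11 in mock, 5.68, 5.67 and 5.55 in GPR39 and 5.61, 5.98 and 5.36 in agonist arrays. Mock replicate 1 was the lowest mock array by a wide margin, and the change in GPR39 against mock was -0.23 ± 0.22 (adjusted p = 0.677). Mock replicate 1 was also the lowest mock array of PSMD6-AS2, with 3.02, 4.17 and 3.89 in mock, 3.17, 3.08 and 3.51 in GPR39 and 3.47, 3.63 and 3.70 in agonist arrays. Its change of -0.44 ± 0.27 in GPR39 against mock did not pass (adjusted p = 0.496), but without mock replicate 1 it was -0.78 and passed (adjusted p = 0.0426). PSMG3-AS1 read 3.87, 3.30 and 3.50 in mock, 3.22, 3.22 and 3.50 in GPR39 and 3.13, 3.34 and 2.71 in agonist arrays. It was the gene with an unadjusted p under 0.05, with a change of -0.50 ± 0.19 in agonist against mock (adjusted p = 0.135). Its lowest array, agonist replicate 3, lay just above the 40th percentile of the agonist arrays (2.68 to 2.70). PSMB8-AS1 read between 2.92 and 3.14 in all 9 arrays. PSMA3-AS1, PSMB8-AS1 and PSMD6-AS2 overlap PSMA3, PSMB8 and PSMD6 in RefSeq, and signal from the partner gene cannot be told apart without the strand of the probes.

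**Figure D3:**
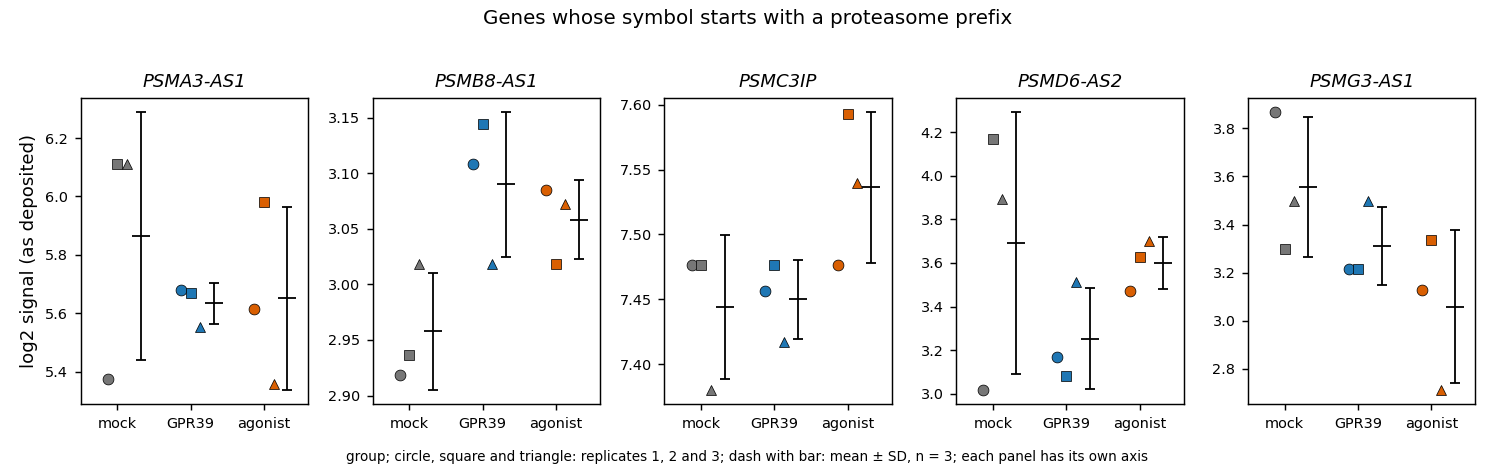
Log2 signal (vertical axis, a separate axis for each gene) of the 5 PSM-symbol genes by group, with 1 point an array and mean ± SD beside the points (n = 3). The groups overlap for every gene, and mock replicate 1 (circle) lies at 5.37 for PSMA3-AS1 and 3.02 for PSMD6-AS2, below the other mock arrays.

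The proteasome was reached in these data only through genes under other symbols. ADRM1, a ubiquitin receptor of the 19S particle, had changes of 0.20, -0.11 and 0.09, each ± 0.11. SEM1, a small 19S subunit, had changes of -0.05, -0.01 and -0.06, each ± 0.10, and POMP, which assembles the 20S core, had 0.16, -0.12 and 0.03, each ± 0.07. None of the 3 passed. These belong to a list of 25 proteasome regulators and shuttles, 22 of them tested, of which 0 passed in GPR39 against mock. In agonist against GPR39 1 was higher and 1 lower, and in agonist against mock 2 were higher and 1 lower. These shares of 9.09% and 13.6% were near the 9.06% and 15.0% over all probe sets. PAAF1, which binds the 19S ATPases, read 6.23, 6.02 and 5.79 in mock, 5.87, 5.69 and 5.79 in GPR39 and 4.97, 5.16 and 5.23 in agonist arrays. Its agonist arrays lay below all others, and it fell in agonist against mock (-0.89 ± 0.12, limma adjusted p = 0.0023). AKIRIN2, which brings proteasomes into the nucleus, rose in agonist against mock (0.51 ± 0.07, adjusted p = 0.00193), and so did NFE2L2, a regulator of stress genes (0.56 ± 0.10, adjusted p = 0.00751). These 3 calls against mock passed with any 1 array left out. The calls in agonist against GPR39, of PAAF1 (lower) and AKIRIN2 (higher), were lost without GPR39 replicate 1 or 3 or agonist replicate 1, and for AKIRIN2 also without mock replicate 2, GPR39 replicate 2 or agonist replicate 2 or 3 (adjusted p = 0.0503 to 0.113).

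The steps before and after the conjugating enzymes are the E1 and the ligases. Of 7 ubiquitin and E1 genes tested, 0 passed in GPR39 against mock. In agonist against GPR39 2 were lower and 0 higher, where 5.95% of all probe sets were lower. In agonist against mock 3 were lower and 0 higher, where 8.94% of all probe sets were lower. UBA3, the catalytic subunit of the enzyme that activates the ubiquitin-like protein NEDD8, read 8.91, 8.75 and 8.79 in mock, 8.76, 8.85 and 8.95 in GPR39 and 8.18, 8.10 and 8.15 in agonist arrays. Mock and GPR39 overlapped and the agonist arrays lay below both. UBA3 fell in agonist against GPR39 (-0.71 ± 0.08, adjusted p = 0.00169) and in agonist against mock (-0.67 ± 0.08, adjusted p = 0.000923). NAE1, its partner subunit, fell in agonist against mock (-0.36 ± 0.07, adjusted p = 0.012), and its call in agonist against GPR39 was lost without any 1 GPR39 array or without agonist replicate 1 or 3 (adjusted p = 0.0566 to 0.0935). UBB, a ubiquitin gene, passed against mock (-0.29 ± 0.08, adjusted p = 0.0451), a call lost on leaving out any 1 array but mock replicate 3. UBA1, the main E1 for ubiquitin, had changes of 0.05, 0.00 and 0.04, each ± 0.06.

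Of 24 ligase genes tested, 0 passed in GPR39 against mock. In agonist against GPR39 1 was higher and 4 lower, where 3.12% of all probe sets were higher and 5.95% lower. In agonist against mock 6 were lower and 0 higher, where 8.94% of all probe sets were lower and 6.11% higher. UBE4B, a ligase that extends chains, read 8.41, 8.29 and 8.42 in mock, 8.06, 8.05 and 8.08 in GPR39 and 7.56, 7.49 and 7.48 in agonist arrays. The 3 groups did not overlap, and UBE4B fell in agonist against GPR39 (-0.55 ± 0.06, limma adjusted p = 0.0024) and in agonist against mock (-0.86 ± 0.06, adjusted p = 0.000122). UBE3B, a HECT ligase, fell in the same comparisons (-0.60 ± 0.07, adjusted p = 0.00216, and -0.65 ± 0.07, adjusted p = 0.000671), and so did CUL2, a cullin scaffold (-0.40 ± 0.06, adjusted p = 0.00837, and -0.34 ± 0.06, adjusted p = 0.00985). The calls of UBA3, UBE4B, UBE3B and CUL2 passed with any 1 array left out. The call of UBE4A in agonist against GPR39 was lost without any 1 GPR39 array or agonist replicate 3 (adjusted p = 0.0513 to 0.0724). That of ANAPC1 in agonist against mock was lost without mock replicate 2 or 3 or agonist replicate 2 or 3 (adjusted p = 0.0643 to 0.0883). The gene higher in agonist against GPR39 was SKP1, an adaptor of cullin ligases (0.85 ± 0.21, adjusted p = 0.0436), a call lost without mock replicate 2, any 1 GPR39 array or agonist replicate 1 or 2 (adjusted p = 0.0662 to 0.13). CDC34, a conjugating enzyme of cullin ligases whose symbol lacks the UBE2 prefix, had changes of 0.14, 0.15 and 0.29, each ± 0.14, and did not pass.

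Genes that work with the proteasome in stress and antigen presentation were few. Of 4 tested targets of NFE2L1 and NFE2L2 outside the proteasome, 0, 1 and 2 passed in the 3 comparisons, all higher. Among all probe sets 0.749%, 3.12% and 6.11% were higher in the same order. The call in agonist against GPR39 was SQSTM1 (0.40 ± 0.09, adjusted p = 0.0288), and it was lost without any 1 GPR39 array or any 1 agonist array (adjusted p = 0.0556 to 0.0893). SQSTM1, a receptor that takes ubiquitin-marked cargo to autophagy, rose in agonist against mock (0.64 ± 0.09, limma adjusted p = 0.00239), and so did TXNRD1, a thioredoxin reductase (0.52 ± 0.08, adjusted p = 0.00305). In both comparisons with mock 3 of the 4 targets had positive changes and 1, HMOX1, negative ones. HMOX1 had -0.31 ± 0.12 in GPR39 against mock, without overlap of the arrays (adjusted p = 0.283). Its other changes were 0.22 ± 0.12 in agonist against GPR39 and -0.09 ± 0.12 in agonist against mock, and none passed. Of 3 antigen processing genes tested, 1, 0 and 3 passed, all higher, beside 0.749%, 3.12% and 6.11% of all probe sets. B2M, the light chain of MHC class I, rose in agonist against mock (0.33 ± 0.07, adjusted p = 0.0145), as did IRF1, an interferon-responsive regulator (0.54 ± 0.08, adjusted p = 0.00342). TAPBP, which loads peptides on MHC class I, was the gene that passed in GPR39 against mock (0.52 ± 0.07, adjusted p = 0.0135), a call lost without mock replicate 2 or any 1 GPR39 array (adjusted p = 0.0611 to 0.0719). From GPR39 to agonist TAPBP changed by -0.19 ± 0.07 without overlap of the arrays (adjusted p = 0.131), while B2M and IRF1 had positive changes. In agonist against mock TAPBP was higher (0.32 ± 0.07, adjusted p = 0.0154), a call lost without mock replicate 2 (adjusted p = 0.0555). The leukocyte marker mean was also higher in the agonist than in the mock arrays, as given above, with positive changes for all 5 markers, and its part in these results was not tested.

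**Figure D4:**
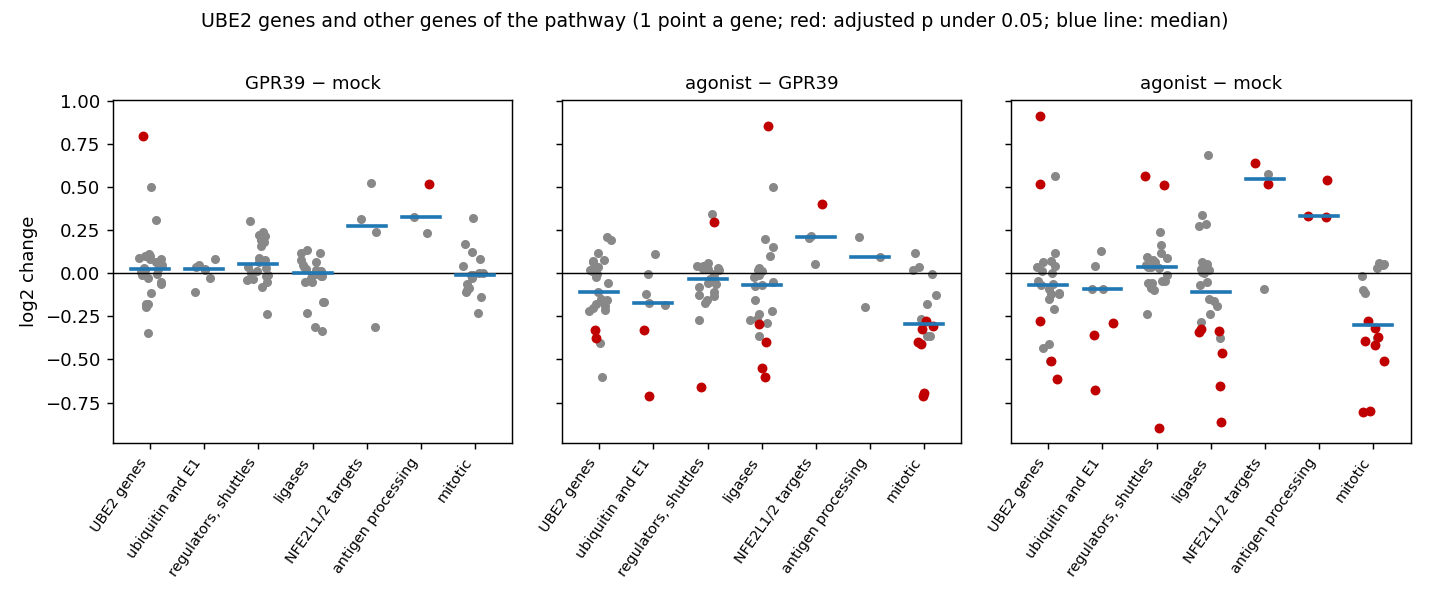
Log2 changes (vertical axis) of the UBE2 genes and 6 lists of other pathway genes, 1 point a gene, in the 3 comparisons; blue lines are medians and red points have an adjusted p under 0.05. The mitotic list has medians of -0.01, -0.29 and -0.30, and the UBE2 genes 0.03, -0.11 and -0.07.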

How the data were processed

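Total RNA of 9 arrays was measured. The deposited table holds log2 values, judged from their range (0.717 to 13.5), for 53617 probe sets. The authors used MAS5, per the submitters' processing notes; no source used here names the version, the log step, the background correction or the normalization between arrays. The values were used as deposited. Probe sets were named through the platform annotation given with the table (16098 named), and their symbols and classes taken from RefSeq. One limma model (3.58.1, R 4.3.3; lmFit and eBayes, 3 groups, 6 residual degrees of freedom) was fitted to the 33376 probe sets above the 40th percentile in at least 3 arrays. All tests are two-sided, and p-values were adjusted by Benjamini-Hochberg with a threshold of 0.05. The number of arrays limits the precision.

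Any gene of the set could be named. Those past the threshold, and the gene with the highest level of each role group, are given array by array. The genes, the other pathway lists and the motifs were chosen with earlier results of these data known, and the pathway genes named are examples chosen after their values were seen. The comparisons share groups and are not independent. The fitting code was tested on simulated data. Alternatives were another centring, quantile normalization, other filters, a replicate block, a fit of 6 arrays, a trended robust prior, the lowest probe set of a gene, each array left out, and, chosen after seeing the data, exact repeat rows dropped (1318 rows).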

Additional observations from a re-analysis of the deposited data

How the results depend on the processing

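No called value changed direction under any alternative. The number of UBE2 genes past the threshold in agonist against GPR39 (2) was 1 with each array centred on its 75th percentile, 1 with quantile normalization, 1 with no filter and 4 with a trended robust prior. That in agonist against mock (5) was 3 with the centring, 3 with no filter and 3 with only the 6 arrays of the comparison. With the replicate number as a block, the 3 comparisons gave 0, 0 and 3 UBE2 genes. Same-numbered arrays had deviations that correlated at -0.101 to 0.0647. With 3 arrays a group these values cannot settle whether the numbers pair the samples. The counts over all probe sets with the block were 150, 1819 and 3955 in place of 391, 3025 and 5022. The block also uses up residual degrees of freedom, so lower counts do not settle it either. With 1 array left out the UBE2 counts ranged from 0 to 1, 0 to 2 and 3 to 5, the count of PSM-symbol genes from 0 to 1 in GPR39 against mock and stayed at 0 in the other comparisons, and the median change of all 30 genes from 0.00 to 0.04, -0.11 to -0.02 and -0.09 to -0.03. The count over all probe sets in GPR39 against mock was 1324 without mock replicate 1, 137 without mock replicate 2, 193 without mock replicate 3, 190 with the 6 arrays alone, 637 with a filter at the 60th percentile and 663 with the trended robust prior. Dropping exact repeat rows, an alternative chosen after seeing the data, changed no count of calls among these genes. UBE2D4 passed in agonist against GPR39 with the filter at the 60th percentile (adjusted p = 0.0334) and with only 6 arrays (adjusted p = 0.0494), and UBE2K with the trended robust prior (adjusted p = 0.0465). UBE2QL1, UBE2S and UBE2E2 passed in agonist against mock under every alternative run. The cause of the other changes was not tested. Probe sets near the 40th percentile, such as UBE2NL and PSMB8-AS1, have little signal over the dimmest probes.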

Other observations

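Arrays often held exactly the same value for a gene, to every deposited decimal. Of the 30 genes tested here 11 (36.7%) had at least 2 of 9 arrays with an identical value, beside 44.4% of all 33376 probe sets tested. PSMC3IP had the same value in 4 arrays, and PSMB8-AS1, UBE2A, UBE2E1, UBE2O and UBE2Z in 3. Among the 5 UBE2 genes past the threshold UBE2D4 alone had 1 such pair, GPR39 replicates 1 and 2. Equal values were not counted over the other pathway genes. Of those that passed, SQSTM1 read 6.3078 and IRF1 4.55178 in all 3 GPR39 arrays, so their SD in that group was 0. Which processing step gave these equal values was not tested.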
